A study of Mus musculus with 12 samples.

Results

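The AMPA and NMDA receptors are the ion channels through which glutamate excites neurons, and 9 genes for their subunits were examined in mouse cortex: Gria1, Gria2, Gria3 and Gria4 for the AMPA receptor, and Grin1, Grin2a, Grin2b, Grin2d and Grin3a for the NMDA receptor. They were chosen by name from the 48526 genes of the deposited tables, and each was present at both ages. In the TAU58/2 line a Thy1 promoter drives human P301S tau, a mutant form found in families with frontotemporal dementia, in neurons. There were 4 groups of 3 mice each: 10-month TAU58/2 transgenic, 10-month non-transgenic control, 3-month TAU58/2 transgenic and 3-month non-transgenic control. All 12 mice were untreated and on a C57Bl/6 background, the tissue was whole cortex with its cell types mixed, and the sex of the animals is not among the labels used here. The design asks how the subunits of transgenic and control cortex compare at either age, if the comparison depends on age, and how the ages compare within a genotype. A library is named by its age, its label and its replicate number. Values are FPKM, fragment counts scaled by transcript length and library size. Levels of different genes are set side by side on this scale only as listed, since those of Grin2a and Grin2b are implausibly low.

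AMPA receptors are assemblies of 4 subunits, GluA1 to GluA4, encoded by Gria1 to Gria4, and carry most fast excitatory transmission. GluA2 makes the channel nearly impermeable to calcium, because RNA editing replaces the glutamine codon at its pore (the Q/R site) with one read as arginine. NMDA receptors need glutamate and a co-agonist, glycine or D-serine, together with depolarization to open, and they admit calcium. Each contains the obligatory GluN1 subunit, encoded by Grin1. GluN1 is joined by GluN2 subunits, of which GluN2A and GluN2B, from Grin2a and Grin2b, are the main ones of the adult forebrain, or by GluN3 subunits such as GluN3A, from Grin3a, which lower the calcium permeability.

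The position that sets ion selectivity lies in the pore loop, and its reference sequence can be compared between the subunit genes. The 36 spliced bases around it, 5′ to 3′ in GENCODE transcripts of build GRCm38, are given here with the codon of that position in capitals: the genomic glutamine codon of the Q/R site in the Gria genes, and the asparagine codon in the Grin genes.
Gria1: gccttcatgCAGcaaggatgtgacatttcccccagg
Gria2: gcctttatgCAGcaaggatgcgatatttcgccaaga
Gria3: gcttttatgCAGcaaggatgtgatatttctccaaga
Gria4: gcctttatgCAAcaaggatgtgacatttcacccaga
Grin1: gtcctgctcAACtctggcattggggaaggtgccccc
Grin2a: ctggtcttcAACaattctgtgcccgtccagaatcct
Grin2d: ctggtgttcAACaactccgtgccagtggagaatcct
The Gria genes matched each other at 30 to 33 of these 36 bases, and Grin2a matched Grin2d at 30. No Gria gene matched any of these Grin genes at more than 11. Grin1 matched Grin2a at 12 and Grin2d at 14, little more than that, so the Grin genes shown are not alike as a family here. The Gria2 codon lies at chr3:80706911-80706913 on the minus strand, in an exon. The genome encodes glutamine there in all 4 Gria genes, so the edited form of Gria2 is a property of the RNA that gene-level FPKM do not show. Adarb1, which encodes the editing enzyme for this site, lay between 0.00163 and 0.238 FPKM in the 12 libraries and was under the level tested.

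The pore loop of Grin3a differs from these, so it is shown by the motif that the whole family shares at the end of the third membrane segment. Its codons are in capitals, beside the same stretch of Gria2 and Grin1.
Grin3a: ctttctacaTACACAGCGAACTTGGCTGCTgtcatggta
Gria2: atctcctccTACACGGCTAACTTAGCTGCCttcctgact
Grin1: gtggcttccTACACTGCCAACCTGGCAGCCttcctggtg
Over whole transcripts the members were distinct. Of the 36 pairs of members, 8 shared any word of 31 bases, and the most shared was 0.607% of the words of the smaller gene.

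All 9 are protein-coding genes on GRCm38. Gria1 spans chr11:57011387-57330244, Gria2 chr3:80681450-80802835, Gria3 chrX:41400854-41678601 and Gria4 chr9:4417896-4796234. Grin1 spans chr2:25291181-25319187, Grin2a chr16:9567898-9995560, Grin2b chr6:135713233-136173511, Grin2d chr7:45831883-45878378 and Grin3a chr4:49661611-49845744.

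Per library, 12828 to 13914 genes were above 0, with a total of 125933 to 158077 FPKM. Their relative depth was within 1.37 times that of the shallowest by the steps of low values, although the most common step ratio held for only 5.41% to 7.58% of low genes, and the absolute depth is unknown. Log2 values correlated across genes with a Pearson r of 0.627 to 0.719 between libraries of a group and of 0.625 to 0.721 between libraries of different groups. Mapt and Thy1 had log2 fold changes of 2.44 and 1.83 in the libraries labelled transgenic at 3 months and of -0.28 and -0.34 at 10 months, and none of these passed the test (limma adjusted p of 0.27 or more). Mapt was at 42.6, 12.4 and 3.31 FPKM in the 10-month transgenic libraries 1 to 3, against 42.7, 8.13 and 9.08 FPKM in the 10-month controls, so transgenic 1 and control 1 were both high. At 3 months it was 43.3 to 47.6 FPKM in transgenic and 6.64 to 12.0 FPKM in control libraries. The groups of Mapt thus separated by label at 3 months and not at 10 months. Every 10-month direction below is therefore that of libraries labelled transgenic against libraries labelled control. All 7 markers of cortical excitatory neurons averaged at least 1 FPKM. Of the 6 hippocampal markers, Dsp and Prox1 were at 0 in every library and 2 averaged at least 1 FPKM, with a sum of 10.2 to 38.1 FPKM over the 12 libraries. The 7 excitatory neuron markers summed to between 1321 and 1661 FPKM in the 10-month transgenic and 1447 and 1645 in the 10-month control libraries. At 3 months the excitatory sum lay between 938 and 1763 FPKM in transgenic and 521 and 1857 in control libraries. The 10-month transgenic 1 library held 11228 FPKM of growth hormone (Gh), and its 6 pituitary markers summed to 13470 FPKM, against at most 53.8 FPKM in any other library.

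Ordered by their median over the 12 libraries, the subunit genes spanned a wide range of levels. Grin1 was highest at 36.8 FPKM, followed by Gria1 at 21.2, Gria3 at 16.1, Gria2 at 12.3 and Gria4 at 5.25 FPKM. Grin3a followed at 1.12, Grin2d at 0.383, Grin2b at 0.00645 and Grin2a at 0.00430 FPKM. Grin1 exceeded Gria1 in 10 of 12 libraries, Gria1 exceeded Gria3 in 8, and Gria3 exceeded Gria2 in 11, so these neighbours overlapped in their ranges. Gria2 exceeded Gria4, and Gria4 exceeded Grin3a, with no overlap of ranges. The order at the bottom was not resolved: Grin2b exceeded Grin2a in 5 of 12 libraries. This is the order of listed FPKM, and whether it is that of the transcripts in the tissue was not tested.

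**Figure D1:**
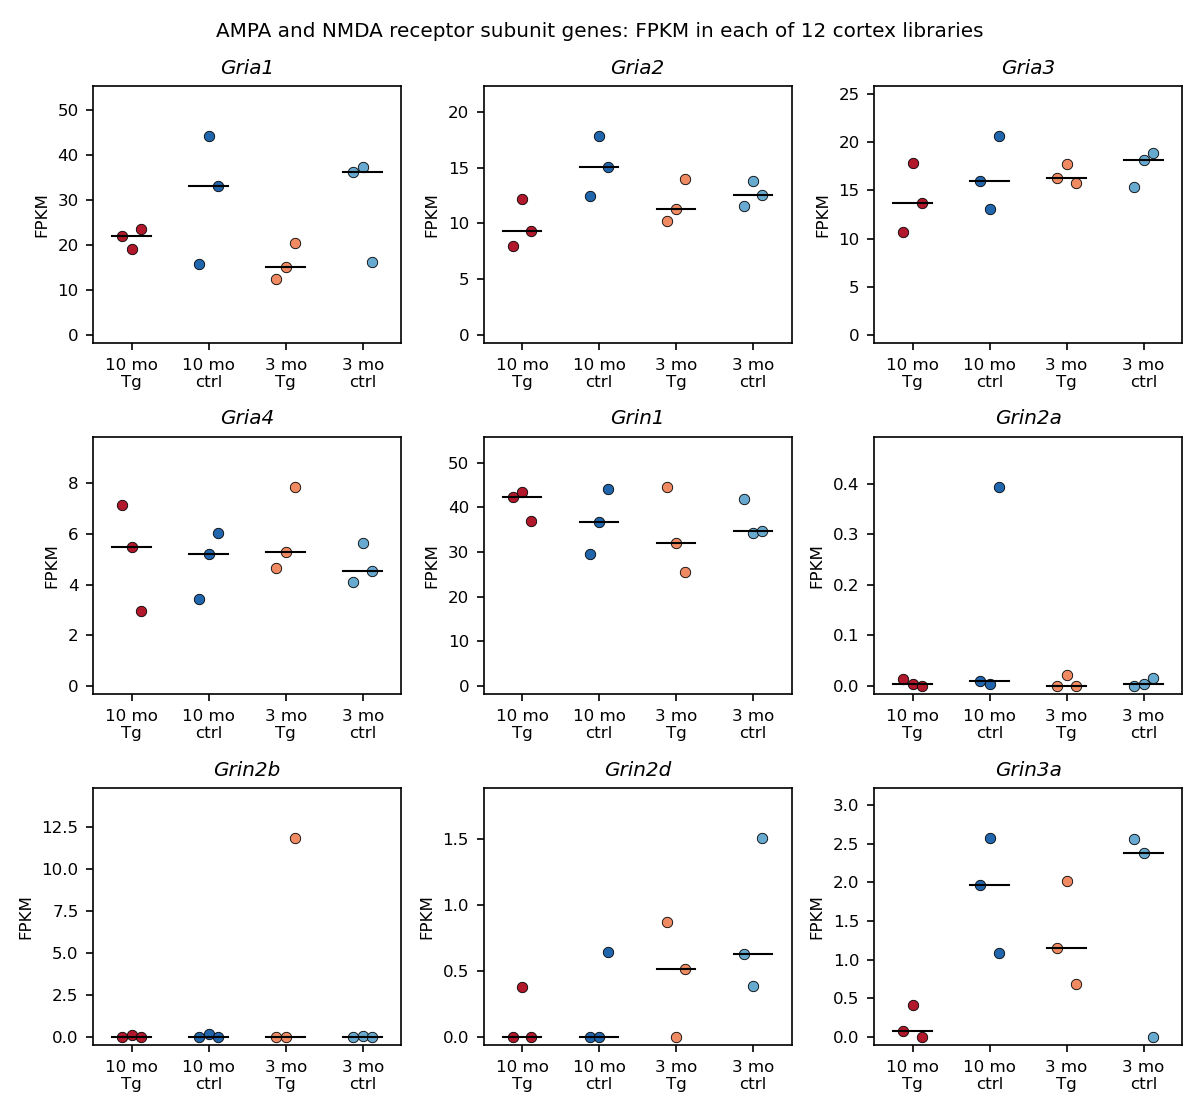
FPKM of each of the 9 subunit genes in each of the 12 libraries, by group, with 10-month before 3-month and transgenic left of control at each age; each point is a library and horizontal bars are group medians. Gria2 and Grin3a separate the 10-month groups, Gria1 has 4 control libraries above every transgenic one, and Grin2b stands at 11.9 FPKM in a single 3-month transgenic library.

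Expression was compared with limma on log2(FPKM + 0.1) across the 9846 genes whose mean reached 1 FPKM in any group, with Benjamini-Hochberg adjustment over all of them and a threshold of 0.05. Of the 9 members, 7 entered. Grin2a and Grin2d stayed below that level in every group, and Grin2b entered only through its value in a single library, so its fold changes are not read here. At 10 months 0 of the 7 passed in the comparison of transgenic with control, where 0.0102% of all genes tested did. Without adjustment 2 of the 7, Gria2 and Grin3a, had p under 0.05 in limma, against 4.4% of all genes. At 3 months 0 passed, where 0.0406% of all genes did, and 0 had an unadjusted p under 0.05 in limma, against 3.39% of all genes. Among the members read, log2 fold changes ran from -3.16 to 0.17 at 10 months and from -0.84 to 0.55 at 3 months. The median over all genes tested was 0.01 and 0.02. Since the tissue is bulk cortex, fewer cells of a type and less RNA per cell cannot be told apart in any of these values.

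Among the AMPA subunits, Gria2 was lower in the 10-month libraries labelled transgenic without overlap of the groups, a difference that did not pass the adjusted test. Gria2 had 7.93, 12.2 and 9.36 FPKM in the 10-month transgenic libraries 1 to 3, against 12.5, 17.8 and 15.0 FPKM in the 10-month controls. The highest of the transgenic libraries lay just under the lowest of the controls. The mean was 9.83 ± 2.17 FPKM over the transgenic and 15.1 ± 2.69 FPKM over the control mice (SD, n = 3 each). This was a log2 fold change of -0.62 with a standard error of 0.22 and a 95% interval of -1.11 to -0.13 (limma Benjamini-Hochberg adjusted p = 0.969). Such a separation, lower and without overlap, was met by 2 of the 7 members, and by 3.89% of all genes tested. The library with the lowest Gria2, transgenic 1, is the one with the pituitary transcripts. Without it the log2 fold change was -0.48 (limma adjusted p = 0.943). Markers of inhibitory neurons also separated these groups: all 8 averaged at least 1 FPKM, and their sum was 464 to 581 FPKM in the 10-month transgenic and 139 to 437 FPKM in the 10-month control libraries. The 6 thalamic markers, 4 of which never reached 1 FPKM, summed to 8.00 to 9.77 FPKM in the 10-month transgenic and 10.76 to 10.83 FPKM in the 10-month control libraries. Sums of the excitatory, astrocyte, oligodendrocyte, precursor, microglia, endothelial, striatal, hippocampal, pituitary and choroid plexus markers overlapped between these groups. The part of any of the markers in the subunit values at 10 months was not tested.

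At 3 months Gria2 showed no such separation. It had 10.2, 11.2 and 14.0 FPKM in transgenic libraries, against 11.5, 13.7 and 12.5 FPKM in controls, and the groups overlapped. The log2 fold change was -0.10, with a 95% interval of -0.59 to 0.38. The difference between the effects at the ages was -0.52, with an interval of -1.21 to 0.17 (limma adjusted p = 0.987), so a dependence on age was not shown. Averaged over both ages the log2 fold change was -0.36 with a standard error of 0.16 (limma adjusted p = 0.975), the single member of 7 with an unadjusted p under 0.05 there, against 3.75% of all genes. After adjustment 0 of the 7 passed in that comparison, where 0.0508% of all genes did.

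Gria1, which encodes the subunit whose insertion at synapses accompanies long-term potentiation, was the most variable of the AMPA genes. It had 21.9, 19.1 and 23.5 FPKM in the 10-month transgenic libraries, against 15.9, 44.3 and 33.2 FPKM in the 10-month controls. The 3-month values were 12.4, 15.0 and 20.4 FPKM in transgenic libraries, against 36.3, 37.5 and 16.3 FPKM in controls. At each age 2 of the 3 controls lay above every transgenic library of either age, and the other lay within the range of the transgenic libraries. At 10 months that other library is control 1, the control with high Mapt. Thy1 was at 115, 314 and 176 FPKM in the 10-month controls 1 to 3, against 172, 114 and 159 FPKM in the 10-month transgenic libraries. At 3 months Thy1 was 410 to 441 FPKM in transgenic and 105 to 140 FPKM in control libraries. Whether the labels play a part in the Gria1 values was not tested. Across ages Gria1 ranged from 12.4 to 23.5 FPKM in the 6 transgenic libraries, with a median of 19.8. In the 6 controls Gria1 ranged from 15.9 to 44.3 FPKM, with a median of 34.8. At least 4 of 6 controls above every transgenic library was a pattern met by 2.18% of all genes tested, and the opposite by 2.56%. The log2 fold change was -0.42 at 10 months (95% interval -1.35 to 0.51, limma adjusted p = 0.969) and -0.84 at 3 months (-1.77 to 0.09, limma adjusted p = 1). Averaged over ages it was -0.63 with a standard error of 0.29 (limma adjusted p = 0.975). Single libraries decided its size: without 10-month control 1 the 10-month value was -0.84, and without 10-month control 2 it was -0.10.

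Gria3, the X-linked AMPA subunit gene, had 10.7, 17.8 and 13.7 FPKM in the 10-month transgenic libraries, against 16.0, 13.0 and 20.6 FPKM in controls. At 3 months it had 16.2, 17.7 and 15.7 FPKM in transgenic libraries, against 15.4, 18.1 and 18.8 FPKM in controls. The groups overlapped at both ages, with log2 fold changes of -0.24 (95% interval -0.75 to 0.27) at 10 months and -0.07 (-0.58 to 0.44) at 3 months. Gria4, which is prominent in fast-spiking interneurons, had 7.14, 5.48 and 2.96 FPKM in the 10-month transgenic libraries, against 3.43, 5.21 and 6.04 FPKM in controls. The 3-month values of Gria4 were 4.66, 5.28 and 7.86 FPKM in transgenic libraries, against 4.12, 5.64 and 4.54 FPKM in controls. These groups overlapped too, and the log2 fold changes of Gria4 were 0.03 (-0.78 to 0.84) and 0.29 (-0.52 to 1.10). The sign of the Gria4 value at 10 months turned when any of 3 libraries was left out.

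**Figure D2:**
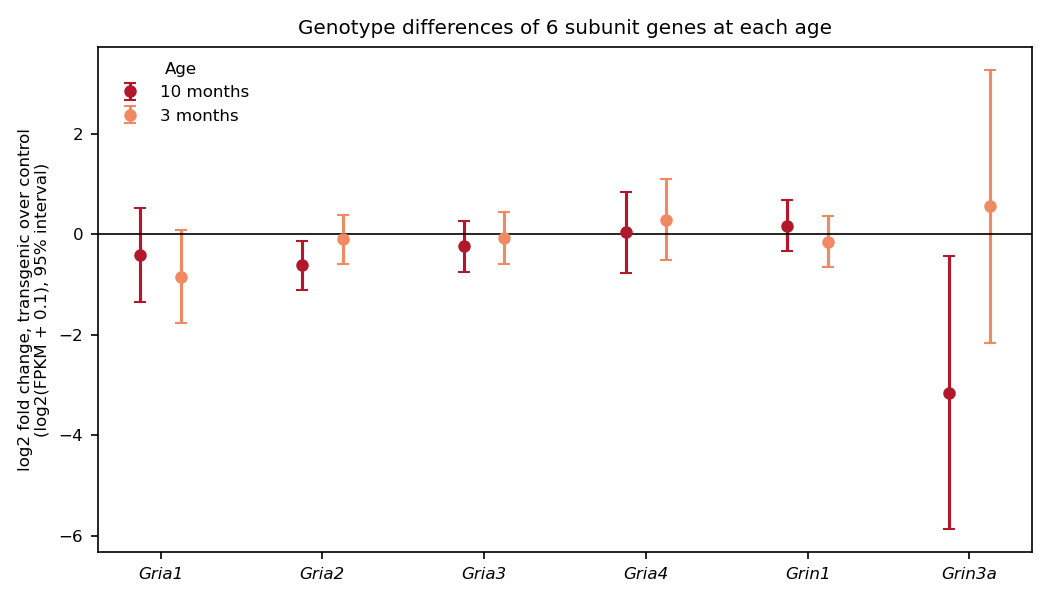
Log2 fold change of transgenic over control for the 6 subunit genes tested in more than a single library's level, at 10 months and at 3 months, on the log2(FPKM + 0.1) scale; points are limma estimates from 3 libraries per group and bars are 95% intervals. The intervals of Gria2 and Grin3a at 10 months lie below 0, and neither passed after adjustment over all 9846 genes.

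Grin1, the obligatory NMDA subunit gene, was among the steadiest members. It had 42.3, 43.4 and 37.0 FPKM in the 10-month transgenic libraries, against 29.6, 36.6 and 44.0 FPKM in controls. In the younger mice Grin1 had 44.6, 32.0 and 25.5 FPKM in 3-month transgenic libraries, against 41.8, 34.2 and 34.7 FPKM in controls. The groups overlapped at both ages. The log2 fold change of Grin1 was 0.17 (95% interval -0.34 to 0.68) at 10 months and -0.15 (-0.66 to 0.36) at 3 months.

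Grin3a, which encodes a glycine-binding subunit most abundant in early postnatal life, was low and the member with the largest log2 fold change at 10 months among the 6 members read. It was listed at 0.0812, 0.412 and 0 FPKM in the 10-month transgenic libraries, against 1.97, 2.58 and 1.08 FPKM in controls. Every transgenic library lay below every control. The log2 fold change was -3.16 with a standard error of 1.22 and a 95% interval of -5.87 to -0.44 (limma adjusted p = 0.969), and its size is set in part by the pseudocount: it was -1.29 with a pseudocount of 1. At 3 months Grin3a had 1.15, 2.02 and 0.680 FPKM in transgenic libraries, against 2.56, 2.38 and 0 FPKM in controls, and the groups overlapped. The log2 fold change there was 0.55 (-2.16 to 3.27), and its sign turned to -1.01 without 3-month control 3, the library listed at 0. The difference between the effects at the ages was -3.71 (-7.55 to 0.13, limma adjusted p = 0.987). In that comparison 0 of the 7 members passed, where 0.0508% of all genes did, and 0 had an unadjusted p under 0.05 in limma, against 3.32%.

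The GluN2 genes were low or listed at 0 in nearly every library. Grin2a did not exceed 0.0227 FPKM in 11 libraries and had 0.394 FPKM in 10-month control 3. Grin2b lay between 0 and 0.160 FPKM in 11 libraries and had 11.9 FPKM in 3-month transgenic 3. Grin2d, a subunit gene of interneurons and of early development, was at 0, 0.381 and 0 FPKM in the 10-month transgenic libraries, against 0, 0 and 0.645 FPKM in controls, and at 0.870, 0 and 0.514 FPKM in the 3-month transgenic libraries, against 0.631, 0.386 and 1.51 FPKM in controls. Of the 108 values of the 9 members, 12 were listed at exactly 0. The low levels of Grin2a and Grin2b stand against the known abundance of these transcripts in adult cortex, and an estimate of 0 cannot be told from absence in FPKM without counts. Both have long transcripts, with a longest annotated one of 14634 bases for Grin2a, 9932 of them after the coding sequence, and of 24060 bases for Grin2b, 18868 of them after it.

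**Figure D3:**
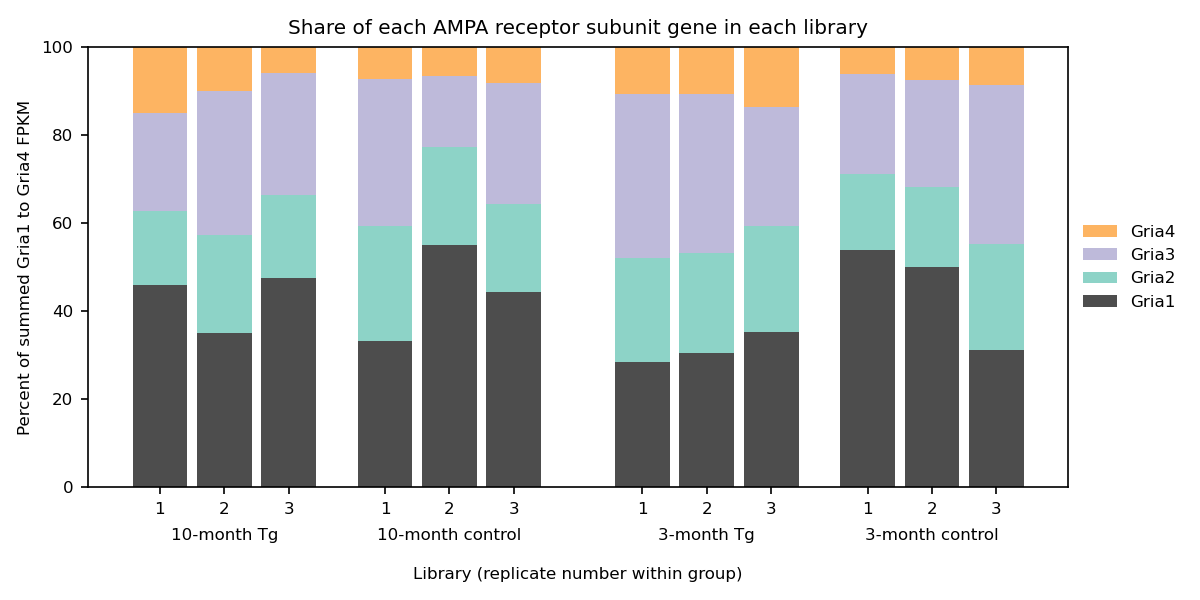
Percent of the summed Gria1 to Gria4 FPKM taken by each gene in each of the 12 libraries, as bars stacked to 100 and grouped by age and label, with Tg for transgenic and replicate numbers under the bars. Gria1 takes 28.6% to 55.1%, and the Gria4 share at 3 months is 10.7% to 13.6% in transgenic and 6.11% to 8.70% in control libraries.

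The make-up of the AMPA pool can be described within each library, where a change of scale cancels. Gria1 took a median of 39.8% of the summed Gria1 to Gria4 FPKM, Gria3 27.6%, Gria2 22.3% and Gria4 8.38%. Gria4 took 10.7% to 13.6% of the sum in the 3-month transgenic libraries, against 6.11% to 8.70% in the 3-month controls, and the groups did not overlap. At 10 months its share was 5.97% to 15.0% in transgenic and 6.48% to 8.06% in control libraries, and the groups overlapped. The share of Gria2 was 16.6% to 22.4% in 10-month transgenic and 20.0% to 26.1% in 10-month control libraries, so the separation of its levels at that age was not present in its share. The ratio of Gria1 to Gria2 was 1.56 to 2.77 in 10-month transgenic and 1.27 to 2.49 in 10-month control libraries, and 1.22 to 1.47 in 3-month transgenic and 1.299 to 3.15 in 3-month control libraries. These are descriptions of several chosen sums and ratios, with no test and no matching share over all genes. They rest on listed FPKM, and the proportions of subunits in the tissue were not measured.

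The AMPA sum itself was 47.7 to 54.6 FPKM in the 10-month transgenic and 47.8 to 80.4 FPKM in the 10-month control libraries. At 3 months it was 43.5 to 58.0 FPKM in transgenic and 52.2 to 75.0 FPKM in control libraries. Grin1 set against this sum gave ratios of 0.747 to 0.888 in 10-month transgenic and 0.455 to 0.620 in 10-month control libraries, without overlap. Neither Grin1 nor the AMPA sum separated these groups by itself. The ratio was among several computed, with no test and no matching share over all genes. At 3 months the ratios were 0.440 to 1.02 in transgenic and 0.456 to 0.664 in control libraries, and they overlapped. Within the 5 NMDA genes, Grin1 took at least 97.9% of the sum in the 10-month transgenic and 93.0% to 95.4% in the 10-month control libraries. Grin3a took 0% to 0.928% in these transgenic and 2.35% to 6.55% in these control libraries, while the Grin1 levels overlapped. The 10-month difference in share is thus mostly that of Grin3a seen again. At their listed levels Grin2a and Grin2b add little to the 10-month sums. Those levels stand against their known abundance, so the NMDA shares are not to be read as subunit proportions. The lowest share of Grin1, 66.1%, was in 3-month transgenic 3, where Grin2b took 30.8%.

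With age, set as 10 months against 3 months within a genotype label, 0 of the 7 tested members passed in transgenic libraries, where 0.0203% of all genes did, and 0 in control libraries, where 0.0305% did. Without adjustment 0 members had a p under 0.05 in limma in either, against 4.31% of all genes in transgenic and 4.19% in control libraries. Grin3a was lower in 10-month than in 3-month transgenic libraries without overlap, which 3.65% of all genes tested also were, with a log2 fold change of -2.60 (95% interval -5.32 to 0.11, limma adjusted p = 0.974). This comparison shares the 10-month transgenic libraries with that of genotype. In controls the smallest unadjusted p of a member was 0.287, for Gria2, with a log2 fold change of 0.25 (-0.24 to 0.74; limma adjusted p = 0.994). The ages were deposited in separate tables, so age and table cannot be told apart.

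The members differed in how closely the libraries of a group resembled each other. The within-group standard deviation on the log2(FPKM + 0.1) scale was 0.24 for Gria2, 0.26 for Gria3 and 0.27 for Grin1, each smaller than that of at least 87.1% of all genes tested. It was 0.44 for Gria4 and 0.55 for Gria1, and 1.55 for Grin3a and 2.06 for Grin2b. The median was 0.73 over all genes tested and 0.49 over the 4028 with a mean of 5 to 50 FPKM. In Gria1 the largest gap between neighbouring values was 0.50, from 23.5 to 33.2 FPKM, which 4 of the 6 controls lay above. Such a gap is not unusual: 68.3% of all genes tested had a larger one. The median largest gap was 0.95 over all genes tested and 0.59 over those with a mean of 5 to 50 FPKM.

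**Figure D4:**
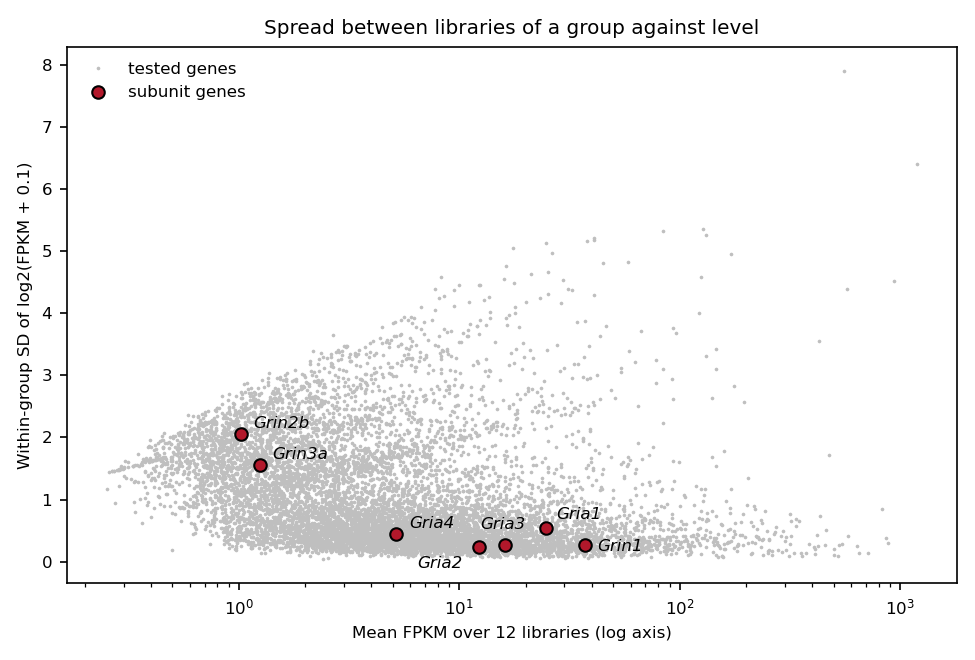
Within-group standard deviation of log2(FPKM + 0.1) against mean level for all genes tested, with the 7 tested subunit genes marked. Gria2, Gria3 and Grin1 lie near the low edge at 0.24 to 0.27, while Grin3a and Grin2b lie at 1.55 and 2.06.

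The genes most alike in pattern were found by the root mean square difference of centred log2 values over the 12 libraries. For Gria1, whose own deviation was 0.57, they were Tgs1 at 0.33, Usf1 at 0.34 and Map4 at 0.35. For Gria2, whose own deviation was 0.30, they were Sugp2, Hpcal1 and Fgf13, each at 0.20. For Grin1, at an own deviation of 0.24, they were Tmem145 at 0.13, Tnk2 at 0.14 and Arl16 at 0.14. Gria3 was nearest to Ntm at 0.15 and Gria4 to Dapk1 at 0.21. For Grin3a, at an own deviation of 1.74, the nearest gene was Ust at 0.69. No other member was among the genes compared.

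The rest of the glutamate pathway was read from 5 lists with 63 genes, chosen with earlier results known. In every comparison 0 of the tested list genes passed in either direction. The AMPA auxiliary and trafficking list had 14 of 18 genes tested, with a median log2 fold change of 0.29 at 10 months and -0.25 at 3 months. Gsg1l, an auxiliary subunit that slows recovery of AMPA receptors, had 3.35, 2.22 and 1.06 FPKM in the 10-month transgenic libraries, against 2.67, 19.2 and 21.5 FPKM in controls (log2 fold change -2.32, limma adjusted p = 0.969). The list's other named gene at 10 months, Cacng5, had 2.02, 1.26 and 0 FPKM in transgenic libraries, against 0, 0 and 0.0885 FPKM in controls. Cacng5 entered the test only through these transgenic libraries and had a median of 0 FPKM over the 12 libraries, so its fold change is not read here. At 3 months Shisa7 and Shisa9, further auxiliary subunits, had log2 fold changes of -1.78 and -0.92, and that of Shisa9 was -0.47 without transgenic 1 and -0.56 without control 2.

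The kainate, delta and remaining NMDA list had 5 of 9 genes tested, with medians of -0.14 at 10 months and 0.13 at 3 months. Grik5, a kainate receptor subunit gene, had 36.5, 35.1 and 39.8 FPKM in the 10-month transgenic libraries, against 25.1, 31.3 and 19.7 FPKM in controls, without overlap. Its log2 fold change was 0.57 with a standard error of 0.20 (limma adjusted p = 0.969), and 4.37% of all genes tested were higher without overlap there. Grik3 had a log2 fold change of -2.17 at 10 months, which rested on transgenic 3, listed at 0, and was 0.01 without it. At 3 months Grik3 had 1.00, and 0.34 without control 3, while Grid1 had -0.43, and -0.26 without transgenic 2. Of the NMDA genes in this list, Grin2c was above 0 in 10-month transgenic 2 alone, at 0.425 FPKM, and Grin3b was at 0 in all 12 libraries.

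The list for glutamate release, uptake and co-agonist synthesis had 11 of 12 genes tested, with medians of -0.36 at 10 months and 0.34 at 3 months. Slc1a2, the main astrocytic glutamate transporter, had 7.96, 10.3 and 3.66 FPKM in the 10-month transgenic libraries, against 44.2, 158 and 165 FPKM in controls, without overlap. Of all genes tested, 3.89% were lower without overlap in that comparison. The log2 fold change of Slc1a2 was -3.95 with a standard error of 1.26 (limma adjusted p = 0.969). At 3 months it had 4.43, 13.5 and 149 FPKM in transgenic libraries, against 16.7, 170 and 129 FPKM in controls, so low and high values occurred in both groups. Slc6a9, a glycine transporter gene, had a log2 fold change of -1.05 at 10 months, and -0.26 without transgenic 3, its lowest library at 0.606 FPKM. Slc38a1, a glutamine transporter gene, had -1.33 at 3 months, and -0.14 without transgenic 1, its lowest library at 1.09 FPKM.

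The metabotropic receptor and Homer list had 6 of 10 genes tested, with medians of -0.06 at 10 months and -0.24 at 3 months. Homer1 and Grm4 had log2 fold changes of -0.98 and 1.199 at 10 months, and both rested on control 3, where Homer1 had 12.9 FPKM and Grm4 was listed at 0: without it they were -0.20 and -0.41. At 3 months Grm2 and Grm3 had -0.85 and -0.25, and without transgenic 1 they were -0.31 and -0.12. The NMDA calcium signalling list had all 14 genes tested, with medians of 0.00 and 0.04. Nos1 was listed at 0 in all 3 of the 10-month transgenic libraries, against 0, 1.99 and 1.54 FPKM in controls. Its median over the 12 libraries was 0 FPKM, and its highest value, 3.21 FPKM, was in 3-month transgenic 3. The fold change of Nos1 is therefore not read here. Rasgrf2 had a log2 fold change of -1.09 at 10 months, and -0.33 without transgenic 3, its lowest library at 0.338 FPKM. At 3 months Rasgrf2 had 1.65.

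In the authors' deposited table, whose test is not stated, the smallest q of a member was 0.854 at 10 months and 0.904 at 3 months. The authors' deposited table gives Gria2 a log2 fold change of -0.60 with p = 0.0997 at 10 months, and Grin3a -1.23 with p = 0.0277. It lists q under 0.05 for 1 of 19247 genes at 10 months and 3 of 19196 at 3 months, none of them a member.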

How the data were processed

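RNA of 12 cortices was sequenced as stranded, ribosome-depleted total RNA, per the labels' protocols. The authors deposited FPKM per gene and library in a table for each age, made with HISAT2 2.0.4, SAMtools 0.0.19, StringTie 1.3.0 and R 3.4.2 on mm10 or GRCm38, per the submitters' processing notes. Which gene annotation was used is not given in the sources used here. Besides FPKM, the authors' deposited tables also hold a fold change (a ratio), its log2 value, p-values and q-values. Counts were not used, and depth is unknown, so no counting interval is given.

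Groups and replicate numbers came from the labels, which do not say whether same-numbered mice are related. FPKM were analysed as log2(FPKM + 0.1), which understates changes of low genes, and both tables entered a single limma fit (limma 3.58.1, R 4.3.3, eBayes with trend and robust, 1 mean per group) over the 9846 genes whose mean reached 1 FPKM in any group. P-values were adjusted by Benjamini-Hochberg over all of them. The fit was tested on simulated data in which only genes of higher level and small spread were changed. That test does not bear on low or variable members such as Grin3a. The members and lists were chosen with earlier results of these data known. The genes named were the members, Mapt and Thy1, up to 2 genes with the smallest p per list and genotype comparison, and the 3 genes nearest in pattern to each tested member, of which some are printed (a gene and a sequence are not reported here); Adarb1, Grin2c, Grin3b and the marker gene Gh were named after their values were seen. Alternatives were other pseudocounts, filters, scalings, a replicate block, other variance models, each age alone and each library left out. Setting values under an eighth of a gene's median to missing, and leaving out libraries for the named list genes, were added after the data were seen. Sequences and coordinates came from GENCODE M21 on GRCm38.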

Additional observations from a re-analysis of the deposited data

How the results depend on the processing

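The number of subunit genes past the threshold was 0 in all 6 comparisons under every alternative that could be fitted, leaving out each of the 12 libraries included, and with the replicate block it was also 0. Of 274 recomputed log2 fold changes of single subunit genes, 7 changed sign. Many of the 274 could not change. Leaving out a library of the other age returns the same value, as do the filters, the replicate block and each age alone. The count is therefore no measure of stability. With a library left out, Gria4 at 10 months ranged from -0.24 to 0.39, Grin1 at 3 months from -0.361 to 0.0407 and Grin3a at 3 months from -1.01 to 1.36. Grin3a at 3 months was also -0.0458 with a pseudocount of 1 and -1.01 with very low values set to missing, an alternative chosen after seeing the data. Its size at 10 months ran from -4.61 to -1.29 over the alternatives other than left-out libraries, and it could not be fitted with a filter at 5 FPKM. The causes were not tested. Over all genes, the number called at 10 months was 1, from 0 to 8 with a library left out and 0 to 2 otherwise. At 3 months it was 4, from 4 to 12 and from 2 to 14, and for the interaction 5, from 2 to 11 and from 1 to 9. For the genotype effect averaged over ages it was 5, from 1 to 10 and from 1 to 9. With the replicate block these counts were 0, 4, 1 and 1, in that order. Same-numbered libraries share only a number: their deviations correlated at -0.12 to 0.09 over 18 pairs, none over 0.1. No scaling or other alternative moved the median of all genes by more than 0.07 on the log2 scale. Depth is unknown, so whether members listed at 0 were absent was not detectable.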

Other observations

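The near-zero levels of Grin2a and Grin2b were set beside other genes with long transcripts. Of the 317 protein-coding genes above 0 in some library whose longest annotated transcript has at least 10000 bases, 58.7% had a median under 0.1 FPKM. The share was 33.4% of the 2720 genes with 5000 to 10000 bases, 26.1% of the 7844 with 2000 to 5000 bases and 32.3% of the 3177 with fewer. It was 29.6% over all 14058 such genes. Gria2, with a longest transcript of 10371 bases, had a median of 12.3 FPKM. Whether transcript length plays a part in the listed levels was not tested.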
